A study of Homo sapiens with 12 samples.

Results

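Integrins and laminins were followed as the genes whose symbol is an integrin alpha chain (ITGA and a number or letter), an integrin beta chain (ITGB and a number) or a laminin chain (LAMA, LAMB or LAMC and a number). Described are 37 genes chosen by these names among the 60099 in the deposited table, 18 alpha chains, 8 beta chains and 11 laminin chains. Of these, 21 had a mean above 1 TPM over all samples (TPM is a level scaled for transcript length and library size), namely 8 alpha, 6 beta and 7 laminin genes. RNA of Cal27 and HN30, established lines of head and neck squamous cell carcinoma (HNSCC), had been sequenced to look for long noncoding RNAs of the IFNα response. The 12 samples carry the letters A to F with 2 replicates each. Cells of A and D had no IFNα, those of B and E were given 20 ng/ml, and those of C and F 200 ng/ml, each for 24 h. The letters fall into the line sets A-C and D-F, one for each line, and which set is Cal27 and which HN30 is not given in the sources used here. These were cultured cells without stroma, and no source says that replicates came from separate cultures, so p-values measure the spread between these samples, which may be technical.

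Integrins are cell surface receptors made of one alpha and one beta chain, and they tie the cytoskeleton to the extracellular matrix or to other cells. Laminins are secreted trimers of an alpha, a beta and a gamma chain that build the basement membrane. In stratified epithelium laminin-332, which holds the LAMA3 and LAMB3 products, is bound by integrin α6β4 in hemidesmosomes and by integrin α3β1, and the αvβ6 integrin is a well-known marker of the invading edge of squamous carcinoma.

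Total estimated counts were between 10517448 and 16056734 per sample, and 3 counts corresponded to 0.187 to 0.285 CPM, counts scaled to the library total. The shallowest library was C replicate 2 and the deepest was A replicate 2, and in D-F both controls were deeper than all 4 treated libraries. All 8 interferon-stimulated genes listed as a dose check were higher at both doses, and the median of their log2 fold changes was 4.16 at the lower and 4.39 at the higher dose. All 10 squamous epithelial markers had a mean above 1 TPM, but KRT14, a basal keratin, lay between 41.9 and 49.2 TPM in A-C and between 0 and 0.25 TPM in D-F. The summed level of these markers was 2830 to 2968 TPM in A and 3073 to 3359 TPM in C, and 1334 to 1424 TPM in D and 1578 to 1600 TPM in F. Of the markers of other cells, 1 of 8 fibroblast, 1 of 6 endothelial and 2 of 7 leukocyte genes had a mean above 1 TPM. These were COL1A1, CDH5, and CD14 with CORO1A. CDH5 lay between 15.2 and 21.7 TPM in A-C and did not exceed 0.156 TPM in D-F. CORO1A lay between 5.69 and 8.74 TPM in A-C and between 10.4 and 18.5 TPM in D-F, and CD14 between 0 and 2.29 TPM. Among the defining leukocyte markers, CD3E and SPI1 were at 0 in every sample, and the highest PTPRC value was 0.0425 TPM. The summed leukocyte markers were 11.3 to 11.6 TPM in D and 19.1 TPM in both samples of F. Most of this sum was CORO1A, at 10.4 and 11.2 TPM in D and 18.1 and 18.0 TPM in F. None of the fibroblast, endothelial or leukocyte markers passed at either dose. In bulk RNA, fewer cells expressing a gene and less RNA per cell cannot be told apart.

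Among the alpha chains, ITGA3 and ITGA6, the partners of the laminin-binding integrins α3β1 and α6β4, had the highest levels. ITGA3 ran from 337 to 392 TPM in A-C and from 297 to 369 TPM in D-F. ITGA6 ran from 295 to 373 TPM in A-C and from 274 to 419 TPM in D-F, so the line sets overlapped for both genes. The collagen receptor chain ITGA2, the fibronectin receptor chain ITGA5 and the RGD-binding chain ITGAV followed, with means over all samples of 50.4, 52.7 and 48.2 TPM. ITGAE, the αE chain that binds E-cadherin, averaged 17.4 TPM, and ITGA4 and ITGA1 averaged 3.67 and 1.90 TPM. ITGA4, the α4 chain of a receptor for fibronectin and VCAM1, was between 4.76 and 9.82 TPM in A-C and listed at 0 in all 6 samples of D-F.

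Among the beta chains, ITGB1, the common partner of many alpha chains, and ITGB4, the partner of α6, were the most abundant at means of 291 and 266 TPM. ITGB1 was lower in every A-C sample, at 176 to 212 TPM, than in every D-F sample, at 364 to 413 TPM. ITGB4 overlapped between the sets, at 213 to 279 TPM in A-C and 251 to 327 TPM in D-F. The partners of αv were next, with ITGB5 at a mean of 67.8 TPM, ITGB6 at 46.3 TPM and ITGB8 at 44.2 TPM. ITGB2, the leukocyte β2 chain, lay between 0.343 and 1.41 TPM in A-C and between 23.6 and 31.6 TPM in D-F. It was the gene that exceeded 1 TPM as a set mean in D-F alone, and ITGA4 was the gene that did so in A-C alone, while the other 19 exceeded it in both sets.

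In gene TPM, the laminin chains with the highest means lay below the 4 leading integrins. In protein-coding transcripts alone this held for ITGA6 and ITGB1, at means of 300 and 286 TPM. There LAMB3 averaged 202 TPM and LAMA3 157 TPM, against 180 TPM for ITGA3 and 100 TPM for ITGB4. LAMA3 and LAMB3, chains of laminin-332, averaged 206 and 202 TPM. LAMB1 averaged 203 TPM, LAMA5 173 TPM, LAMC1 85.8 TPM and LAMB2 54.2 TPM, the chains of which laminins 511 and 521 are built. LAMA4 was low at 4.36 TPM. In all, 8 members had means of gene TPM above 100, and these were ITGA3, ITGA6, ITGB1, ITGB4, LAMA3, LAMA5, LAMB1 and LAMB3. The protein-coding transcripts of LAMA5 alone averaged 65.9 TPM.

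**Figure D1:**
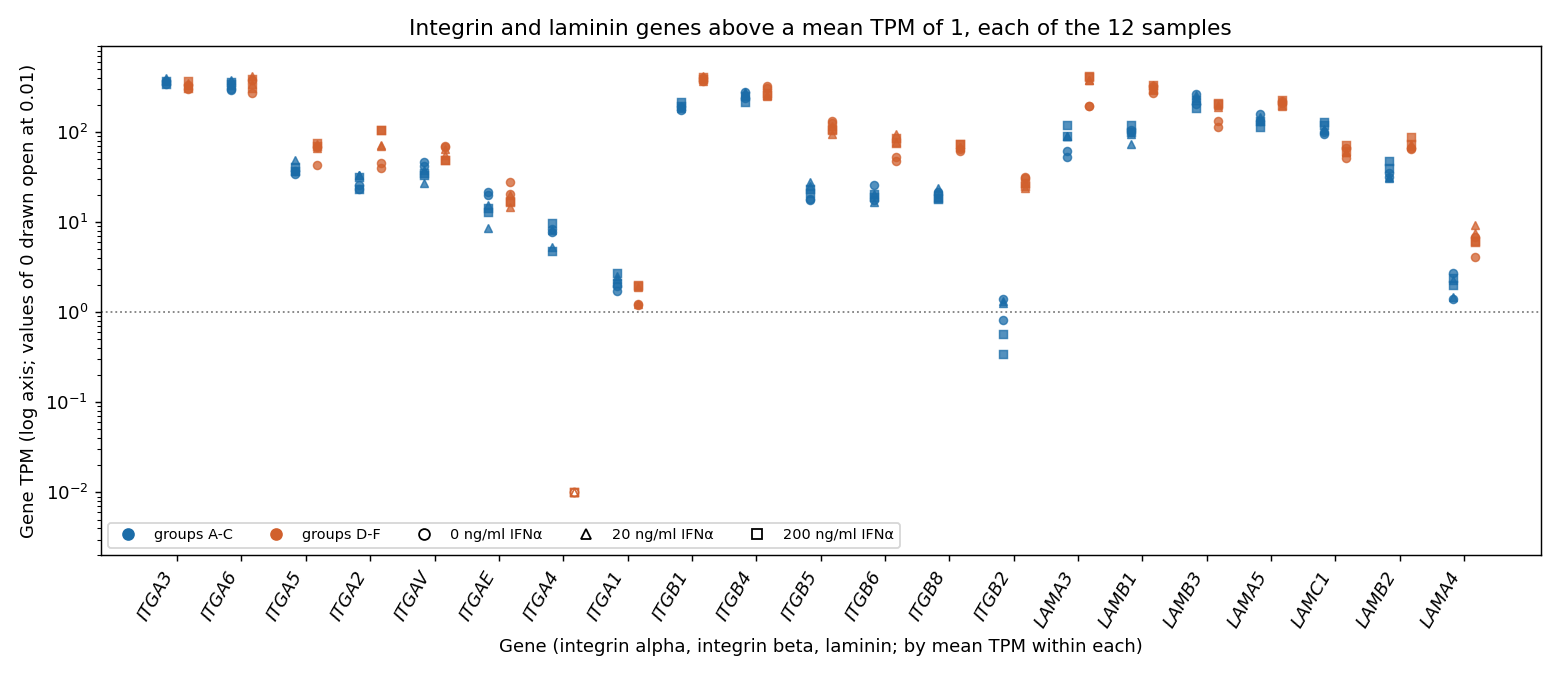
Gene TPM on a log axis for the 21 integrin and laminin genes with a mean above 1 TPM, with 1 point for each of the 12 samples, colour for the line set and marker shape for the dose. ITGB2, ITGB5, ITGB8, LAMA3 and LAMB1 separated the line sets, as did ITGA2, ITGAV, ITGB1, ITGB6, LAMA4, LAMA5, LAMB2 and LAMC1. ITGA4 was at 0 in D-F, and ITGA3 and ITGA6 were among those that overlapped.

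The other 16 members did not exceed a mean of 1 TPM. ITGA8, ITGAD and ITGB3 had 0 counts in all 12 samples, and each library's limit is the 3 counts given above. The platelet chain ITGA2B, the leukocyte chains ITGAM, ITGAX and ITGB7, and ITGA10, LAMA1 and LAMA2 passed the filter on low counts, at means from 0.202 TPM for LAMA1 to 0.619 TPM for LAMA2. ITGA7, ITGA9, ITGA11, ITGAL, LAMB4 and LAMC3 did not pass it, and none of these 6 had more than 9 counts in a sample. Of the 37 members, 28 were therefore tested, 12 alpha, 7 beta and 9 laminin genes, together with 19944 genes in all.

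Untreated D and A differed in many of these genes. Group differences below are log2 fold changes of counts with standard error (SE), and a gene passed at a Benjamini-Hochberg adjusted p of at most 0.05 over all tested genes in edgeR's quasi-likelihood test. With at least 2-fold also required, 7 of 28 members were higher in D, against 15.7% of all tested genes, and 4 were lower, against 11.0% of all tested genes. The members higher in D were ITGB2, ITGB5, LAMB1, LAMA4, ITGB8, ITGB6 and LAMA3, and those lower were LAMB3, ITGA4, ITGAX and ITGAM. ITGA4, ITGAX and ITGAM had at most 2 counts in any D-F sample and passed the filter on low counts only through A-C. Their direction was thus set by the filter, and the count of 4 lower is no support for a shared decrease.

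ITGB2, on chr21:44885953-44931989, had the largest increase. It measured 0.826 and 1.41 TPM in A and 31.6 and 30.6 TPM in D, a log2 difference of 4.15 (SE 0.21, adjusted p = 5.6e-07). ITGB5, on chr3:124761948-124901418, measured 17.4 and 18.2 TPM in A and 124 and 131 TPM in D, and its counts differed by 1.91 (SE 0.10, adjusted p = 8.4e-07). The groups lay far apart for both genes. The size of the ITGB5 difference depended on the scale, since its mean TPM was 7.18 times higher in D and its counts 3.76-fold higher. ITGB8 was at 21.7 and 20.4 TPM in A and at 61.0 and 65.2 TPM in D (1.53, SE 0.08), and ITGB6 was at 25.6 and 17.4 TPM in A and at 52.5 and 48.0 TPM in D (1.32, SE 0.11). All 3 of these beta chains, which pair with αv, were thus higher in D when all transcripts of the gene were counted. For ITGB6 this did not hold in the protein-coding transcripts alone, at 22.7 and 15.35 TPM in A and 13.8 and 18.4 TPM in D. ITGAV itself was 0.48 higher (SE 0.15, adjusted p = 0.0225), at 46.7 and 42.0 TPM in A and 69.3 and 68.3 TPM in D.

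LAMA3 and LAMB3 differed in opposite directions between the untreated groups. LAMA3 was higher in D, at 196 TPM in both replicates, than in A, at 52.9 and 61.7 TPM (1.30, SE 0.09, adjusted p = 3.9e-06). LAMB3 was lower in D, at 132 and 113 TPM, than in A, at 205 and 263 TPM (-1.10, SE 0.15, adjusted p = 0.00023). Without A replicate 2 the LAMB3 difference was -0.88, below the 2-fold limit. The ratio of these chains at the RNA level therefore differed between the untreated groups, with LAMA3 above LAMB3 in both D samples and below it in both A samples.

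Of the chains of other laminins, LAMB1 was higher in D, at 323 and 270 TPM against 105 and 98.6 TPM in A (1.59, SE 0.09). LAMA4 was higher too, at 6.79 and 4.13 TPM against 1.40 and 2.74 TPM (1.57, SE 0.29). LAMB2 was 0.87 higher (SE 0.10) and LAMC1 was 0.89 lower, with a log2 difference of -0.89 (SE 0.09), both passing but under 2-fold. LAMA5 did not pass in counts, at 0.30 (SE 0.11, adjusted p = 0.0515). In TPM its groups did not overlap, at 132 and 158 TPM in A and 209 and 221 TPM in D. The beta chains of laminin were thus on opposite sides, LAMB1 and LAMB2 higher in D and LAMB3 lower.

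ITGA4, ITGAX and ITGAM, chains of receptors best known from leukocytes, were at or near 0 in D. ITGA4 had 117 and 142 counts in A and 0 in both D samples, which is at least 44.3-fold lower in CPM when 3 counts per library are taken as the floor. ITGAX had 6 and 18 counts in A and 0 in D, at least 3.91-fold lower on the same floor. ITGAM had 14 and 25 counts in A and 0 and 2 in D. Other leukocyte chains did not share this pattern. ITGB7 had 2 and 0 counts in A and 13 and 11 in D, and did not pass in edgeR (3.26, SE 1.42, adjusted p = 0.088). ITGAL had 0 counts in all samples of A and D. ITGB2, the partner of αX and αM, was the member most increased in D. The direction of ITGA4, ITGAX and ITGAM was set by the filter, so no contrast with ITGB2 is drawn from them.

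Without the fold limit 18 of 28 members passed, 11 higher in D, against 24.1% of all tested genes, and 7 lower, against 22.4%, so that the share of members that were lower was near that of all genes. These 7 include ITGA4, ITGAX and ITGAM, which passed the filter only through A-C. ITGB1 was 0.92 higher (SE 0.10, adjusted p = 7.2e-05), ITGA2 was 0.73 higher (SE 0.25), ITGA3 stood at -0.38 (SE 0.11) and ITGA1 at -0.82 (SE 0.21). ITGA6, ITGB4 and ITGA5 did not pass, with differences of 0.13 (SE 0.07), 0.11 (SE 0.09) and 0.19 (SE 0.16). In TPM, D lay above A without overlap for ITGA5 (ratio of means 1.57) and ITGB4 (1.23), while ITGA6 overlapped. A p that misses the threshold does not show that the hemidesmosome chains ITGA6 and ITGB4 were equal in the groups.

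**Figure D2:**
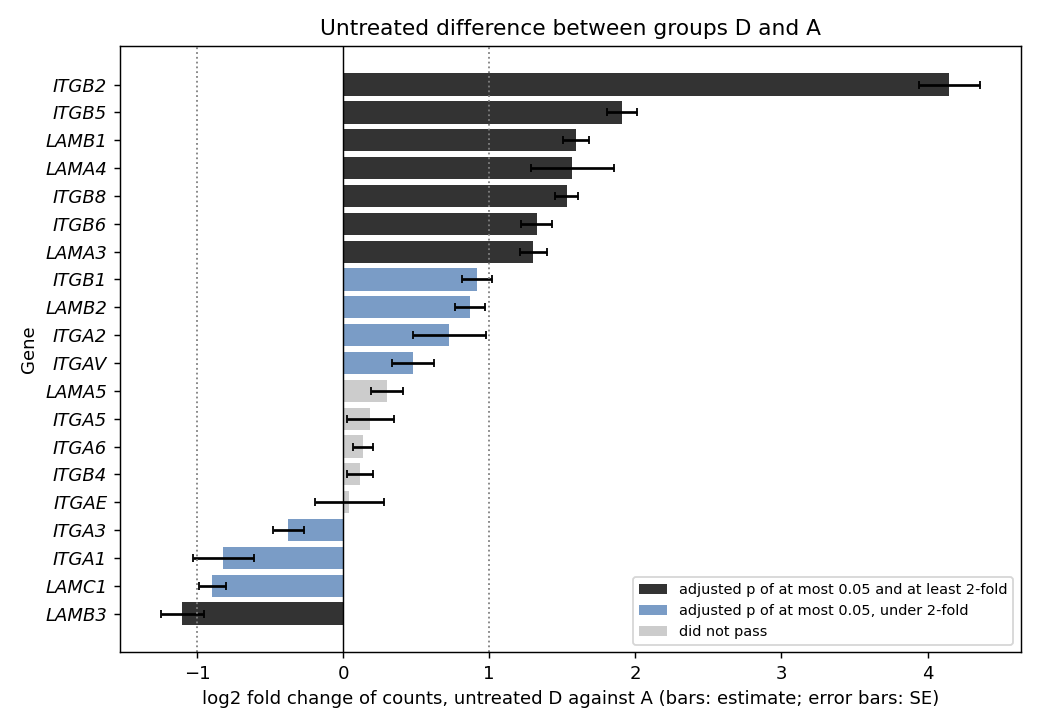
Log2 fold change of counts between untreated D and A for 20 members with a mean above 1 TPM, as bars with SE and shading by the test result; ITGA4 is left out because D was at 0. ITGB2 stands apart at 4.15, and LAMB3, at -1.10, is the one bar of these past 2-fold in the other direction.

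IFNα changed few of these genes by more than 2-fold, and the increase that held in both line sets was that of LAMA3. At 200 ng/ml against control, averaged over both line sets, 4 of 28 members rose (LAMA3, ITGA2, ITGA5 and ITGB6) against 4.98% of all tested genes. Another 4 fell (ITGAV, LAMA5, ITGB4 and ITGB2) against 4.57% of all tested genes. The other 20 did not pass. The median log2 fold change was 0.07 over the members and -0.01 over all tested genes.

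LAMA3, on chr18:23689443-23955066, encodes the α3 chain that is particular to laminin-332 and a few related epithelial laminins. It measured 52.9 and 61.7 TPM in A, 91.1 and 90.8 in B, 90.7 and 120 in C, 196 in both samples of D, 376 and 377 in E, and 404 and 415 in F. Every treated sample was above every control of its own line set. The log2 fold change of counts was 0.75 (SE 0.06, adjusted p = 8.4e-05) at 200 ng/ml and 0.62 (SE 0.06, adjusted p = 0.00042) at 20 ng/ml. LAMA3 also passed at 200 ng/ml within A-C (0.63, SE 0.09) and within D-F (0.88, SE 0.09), and the average over the sets kept its call without each of the 12 samples in turn. The A-C call was lost when the samples of the compared groups alone were fitted (adjusted p = 0.092).

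LAMB3, on chr1:209614870-209652466, encodes the β3 chain. It measured 205 and 263 TPM in A, 235 and 258 in B, 227 and 186 in C, 132 and 113 in D, 188 and 197 in E, and 206 and 211 in F. The A-C doses overlapped, while all 4 treated D-F samples were above both D controls. Averaged over the sets LAMB3 did not pass (0.26, SE 0.10, adjusted p = 0.17), and within A-C its estimate was -0.18 (SE 0.15). Within D-F it rose by 0.69 (SE 0.15, adjusted p = 0.024). That call was lost without D replicate 1 (adjusted p = 0.080), D replicate 2 (0.16), F replicate 1 (0.11) or F replicate 2 (0.13).

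**Figure D3:**
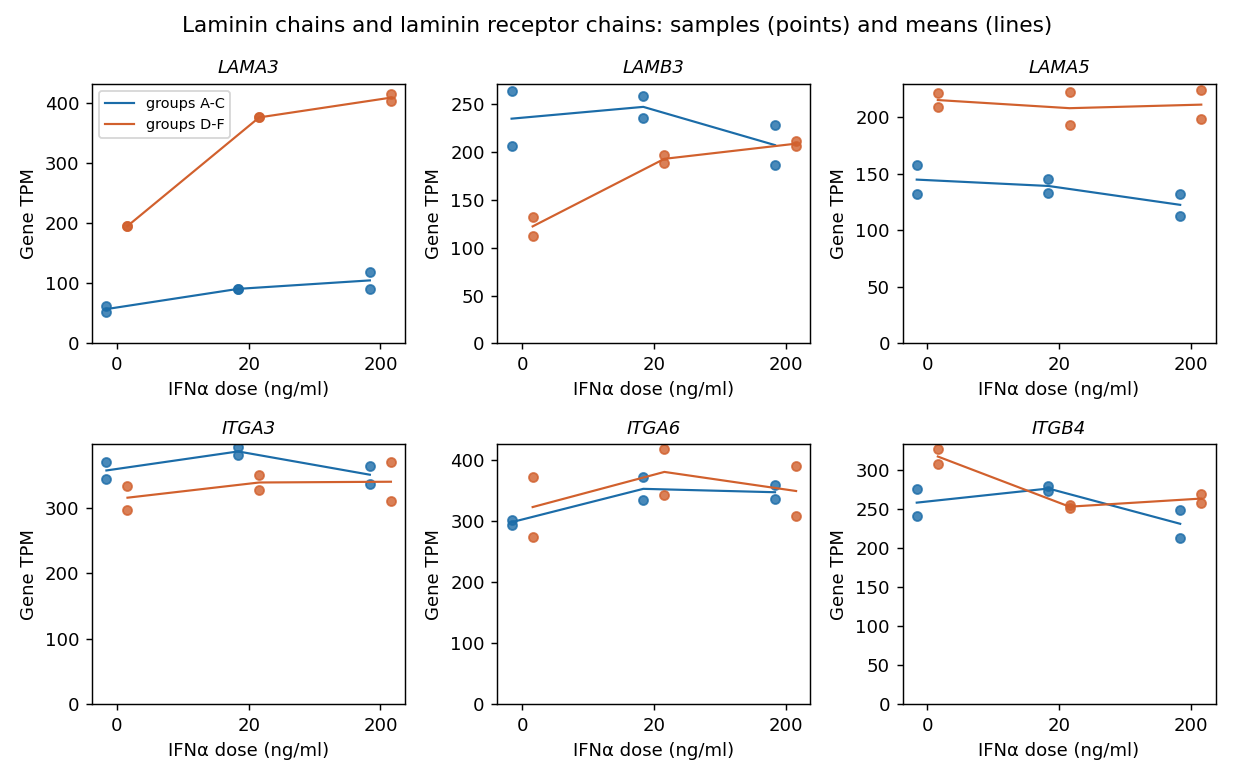
Gene TPM by IFNα dose for the laminin chains LAMA3, LAMB3 and LAMA5 and the laminin receptor chains ITGA3, ITGA6 and ITGB4, with points for the samples and lines through the means of each line set; the doses are evenly spaced and not to scale. In D-F all treated samples of LAMA3 and LAMB3 lie above their controls, and in A-C the LAMB3 samples overlap.

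None of the receptor chains of laminin-332 passed as higher. ITGA6 had log2 fold changes of 0.11 (SE 0.05, adjusted p = 0.21) at 200 ng/ml and 0.12 (SE 0.05, adjusted p = 0.25) at 20 ng/ml. ITGA3 stood at -0.10 (SE 0.07) and ITGB1 at 0.09 (SE 0.07) at 200 ng/ml, and neither passed. ITGB4, on chr17:75721328-75757818, fell by 0.27 on the log2 scale (SE 0.06, adjusted p = 0.028). Its samples measured 241 and 275 TPM in A, 272 and 279 in B, 249 and 213 in C, 327 and 307 in D, 254 and 251 in E, and 268 and 258 in F, so A and C overlapped and D and F did not. The ITGB4 call was lost without A replicate 2, C replicate 2, D replicate 1, D replicate 2, F replicate 1 or F replicate 2, at adjusted p values from 0.068 to 0.084.

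ITGA2, on chr5:52989326-53094779, encodes the α2 chain of the collagen receptor α2β1 and was the member with the largest increase. It measured 25.9 and 23.2 TPM in A, 32.9 in both samples of B, 23.2 and 31.9 in C, 45.4 and 39.7 in D, 69.8 and 71.0 in E, and 105 and 104 in F. In D-F the 3 doses did not overlap, and in A-C the C samples overlapped the A samples. On the log2 scale its counts rose by 1.01 at 200 ng/ml (SE 0.18, adjusted p = 0.0069), the one member change of at least 2-fold. This rise passed in all settings tried, but it was 0.73 without C replicate 2, 0.91 without A replicate 2 and 0.72 in limma on TPM, and so below 2-fold there, and 0.98 with no low-count filter and 0.99 with the replicate block and without D replicate 2. At 20 ng/ml it was 0.69 (SE 0.18, adjusted p = 0.065) and did not pass. Within D-F it rose by 1.58 (SE 0.25, adjusted p = 0.0053) at 200 ng/ml, and within A-C it stood at 0.44 (SE 0.25, adjusted p = 0.34).

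ITGA5, on chr12:54395261-54419460, encodes the chain of the fibronectin receptor α5β1. It measured 34.4 and 36.8 TPM in A, 48.5 and 36.9 in B, 40.5 and 36.8 in C, 68.8 and 43.1 in D, 67.2 and 73.3 in E, and 76.1 and 70.0 in F. The F samples lay above both D samples, with a ratio of means of 1.31, while the lower C sample and the higher A sample were both at 36.8 TPM, with a ratio of means of 1.09. The log2 fold change of counts was 0.56 (SE 0.11, adjusted p = 0.015) at 200 ng/ml and 0.77 (SE 0.11, adjusted p = 0.005) at 20 ng/ml. On log2 TPM with 0.1 added, limma gave 0.27 (adjusted p = 0.37) and 0.31 (adjusted p = 0.43). The call at 200 ng/ml was also lost without A replicate 1 (adjusted p = 0.052), D replicate 2 (0.062) or F replicate 1 (0.057). The ITGA5 increase thus passed in counts and did not pass in TPM.

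ITGB6, on chr2:160099666-160271888, encodes the epithelial partner of αv. It measured 25.6 and 17.4 TPM in A, 16.9 and 20.7 in B, 20.5 and 19.0 in C, 52.5 and 48.0 in D, 96.0 and 76.8 in E, and 86.5 and 76.2 in F. In D-F treated samples lay above the controls, and in A-C they overlapped. Its log2 fold change was 0.38 (SE 0.08, adjusted p = 0.012) at 200 ng/ml and 0.35 (SE 0.08, adjusted p = 0.034) at 20 ng/ml. Within D-F it was 0.67 (SE 0.11, adjusted p = 0.0051) and within A-C 0.10 (SE 0.11) at 200 ng/ml. Without A replicate 2, D replicate 2 or F replicate 1 the adjusted p at 200 ng/ml was 0.0504, 0.055 and 0.057, each just past the threshold. At 20 ng/ml the ITGB6 call was lost in 9 of the 12 fits that left out 1 sample, at adjusted p values up to 0.13.

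ITGAV, on chr2:186590065-186680901, encodes the αv chain with which ITGB6, ITGB5 and ITGB8 pair. It went the other way than ITGB6, at 46.7 and 42.0 TPM in A, 37.9 and 27.4 in B, 34.7 and 33.4 in C, 69.3 and 68.3 in D, 64.9 and 55.7 in E, and 49.3 and 48.9 in F. Every treated sample was below the controls of its set. At 200 ng/ml the counts fell by 0.51 on the log2 scale (SE 0.10, adjusted p = 0.014), and at 20 ng/ml the estimate was -0.39 (SE 0.10, adjusted p = 0.071). Without F replicate 1 the fall did not pass (adjusted p = 0.053). ITGB5 and ITGB8 did not pass at 200 ng/ml, at -0.18 (SE 0.07) and 0.01 (SE 0.06). For ITGB5 within A-C the direction depended on the scale. Its counts stood at -0.33 (SE 0.10, adjusted p = 0.094), while its TPM was 17.4 and 18.2 in A and 23.2 and 20.9 in C.

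**Figure D4:**
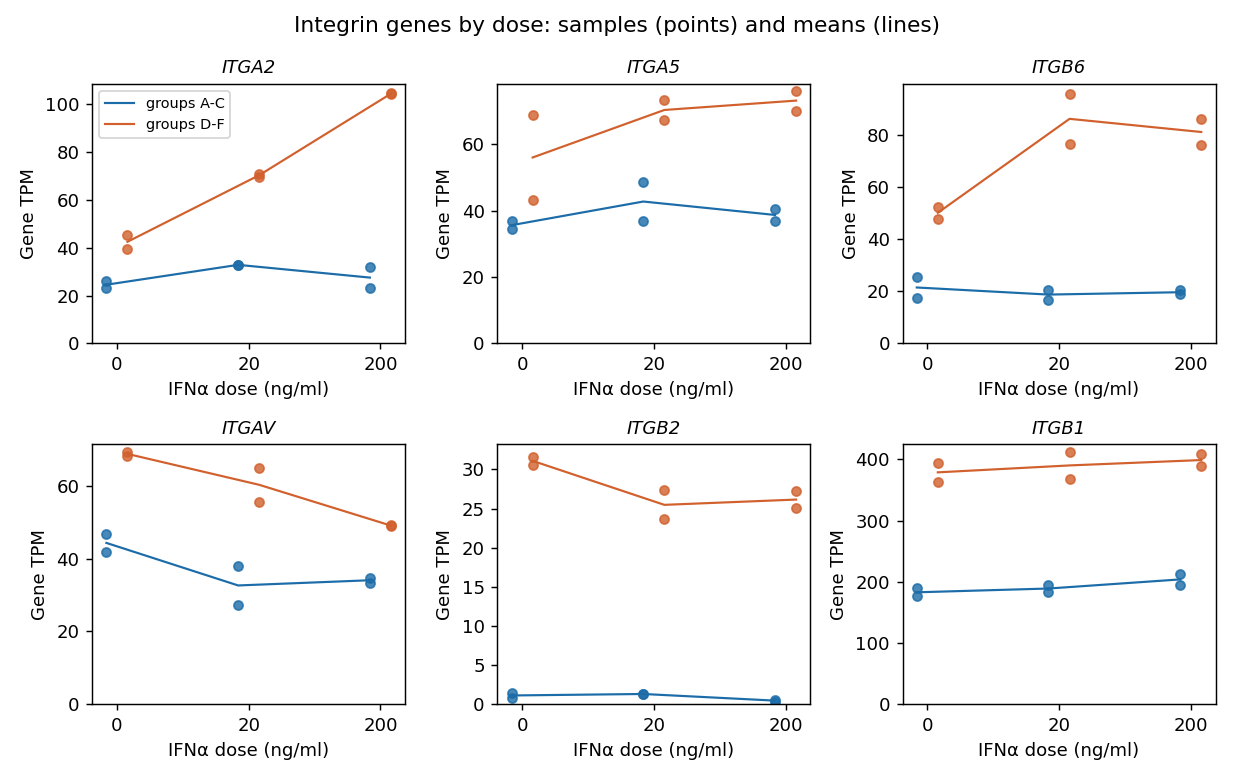
Gene TPM by IFNα dose for ITGA2, ITGA5, ITGB6, ITGAV, ITGB2 and ITGB1, with points for the samples and lines through the means of each line set; the doses are evenly spaced and not to scale. ITGA2 separates the 3 doses in D-F, ITGAV is below its controls in every treated sample, and ITGB1 stays within 176 to 212 TPM in A-C and 364 to 413 TPM in D-F.

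LAMA5 and ITGB2 also fell at 200 ng/ml. LAMA5, on chr20:62307955-62367312, encodes the α5 chain of laminins 511 and 521. It measured 132 and 158 TPM in A, 146 and 133 in B, 132 and 113 in C, 209 and 221 in D, 222 and 193 in E, and 198 and 224 in F, so C overlapped A and F overlapped D in TPM. Its counts fell by 0.41 on the log2 scale (SE 0.08, adjusted p = 0.012), while limma on TPM gave -0.13 (adjusted p = 0.49), and without F replicate 1 the adjusted p was 0.052. ITGB2 fell by 0.61 on the log2 scale (SE 0.16, adjusted p = 0.039), with 29 and 40 counts in A, 24 and 45 in B, 12 and 15 in C, 670 in both samples of D, 406 and 393 in E, and 419 and 453 in F. That call was lost in 9 of the 12 fits that left out 1 sample, all except those without B replicate 1, B replicate 2 or C replicate 2, with adjusted p values up to 0.13.

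The count of 8 members past the threshold at 200 ng/ml rested in part on single libraries. It was 5 without A replicate 2, 4 without D replicate 2 and 2 without F replicate 1. Of the 8, LAMA3 and ITGA2 kept their calls without each of the 12 samples in turn and in limma on TPM.

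At 20 ng/ml, 3 of 28 members rose (LAMA3, ITGA5 and ITGB6) against 2.33% of all tested genes, and 0 fell, against 1.6% of all tested genes, with ITGAE and ITGAV, 2 members, lower at an unadjusted p under 0.05 in edgeR. The comparison of 200 with 20 ng/ml gave 0 of 28 members past the threshold in edgeR and 0 in DESeq2, against 0.135% of all tested genes. In that comparison 4 members had an unadjusted p under 0.05, namely ITGA2B, ITGA3, ITGB2 and LAMA5. The comparisons with control share the control samples, so the 3 genes found at both doses are no independent repeat of each other.

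The response was larger in number in D-F than in A-C, although the difference itself passed for none of the 28. Within D-F at 200 ng/ml, 5 members rose (ITGA2, ITGA5, LAMA3, LAMB3 and ITGB6) against 3.44% of all tested genes, and ITGAV fell, against 2.39% of all tested genes. Within A-C, LAMA3 rose, against 3.58% of all tested genes, and LAMA5 fell, against 3.6% of all tested genes. ITGAV within D-F was lost without any one of the D or F samples, ITGA2 without D replicate 2 (adjusted p = 0.052), and ITGA5 and ITGB6 without D replicate 2 or F replicate 1. The D-F count of 6 was 1 without D replicate 2 and 2 without F replicate 1, and the A-C count of 2 was 1 without A replicate 2 and 1 without C replicate 2.

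The test of the difference in response at 200 ng/ml between the sets passed for 0 of 28 members in edgeR, against 1.88% of all tested genes, and 8 had an unadjusted p under 0.05 (ITGA2, ITGA2B, ITGA5, ITGA6, ITGB6, LAMA5, LAMB3 and LAMC1). DESeq2 called 4 members, and edgeR called 1 without A replicate 1, C replicate 1 or C replicate 2. Among these the edgeR differences were larger in D-F for LAMB3 at 0.87 (SE 0.21, adjusted p = 0.071), ITGB6 at 0.57 (SE 0.15, adjusted p = 0.096), ITGA5 at 0.82 (SE 0.23, adjusted p = 0.11) and ITGA2 at 1.14 (SE 0.35, adjusted p = 0.14), none of which passed. At 20 ng/ml 0 members passed in edgeR, against 0.371% of all tested genes, and 4 (ITGB4, ITGB6, LAMA3 and LAMB3) had an unadjusted p under 0.05.

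**Figure D5:**
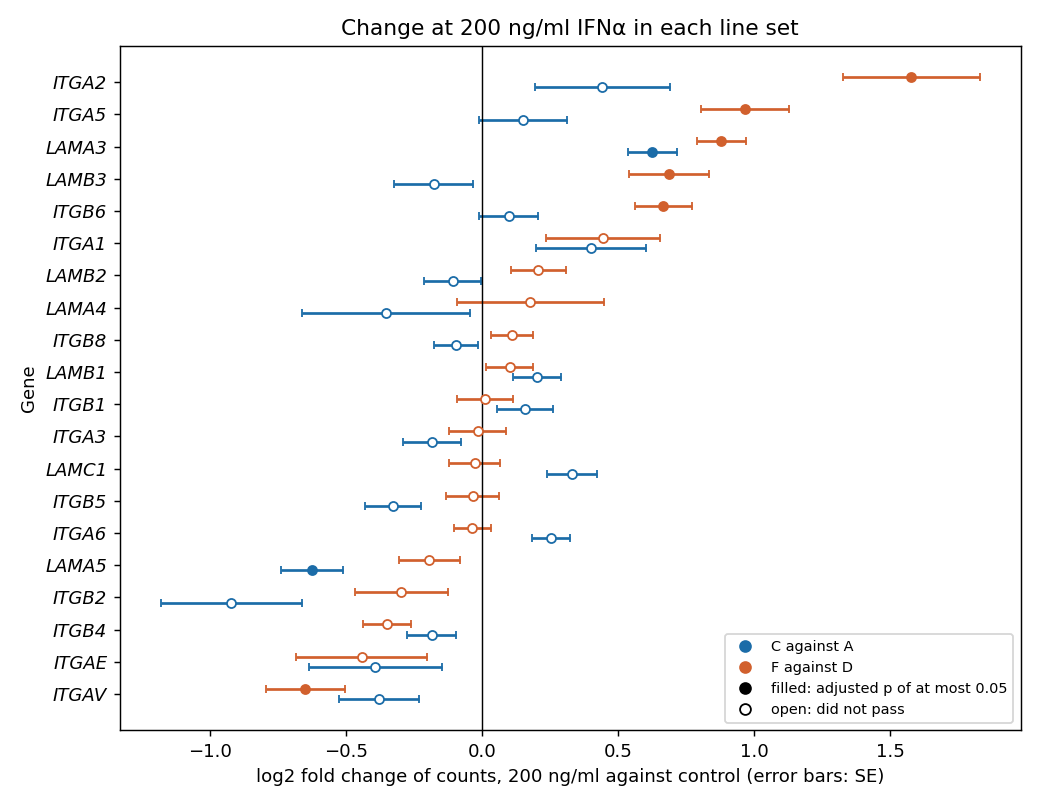
Log2 fold change of counts at 200 ng/ml IFNα against control with SE for 20 members with a mean above 1 TPM, in A-C and in D-F, filled where the adjusted p was at most 0.05; ITGA4 is left out because D-F was at 0. The 5 filled points to the right in D-F are ITGA2, ITGA5, LAMA3, LAMB3 and ITGB6, and LAMA3 is the one filled to the right in A-C.

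The reported laminin genes summed to 633 to 711 TPM in A and 713 to 717 in C, and to 920 to 998 TPM in D and 1257 to 1335 in F. The summed integrin level was 1290 to 1299 TPM in A and 1265 to 1374 in C, and 1765 to 1837 TPM in D and 1854 to 1919 in F.

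Most of the genes that work with integrins and laminins did not pass at 200 ng/ml, where 4.98% of all tested genes were higher and 4.57% lower. Of 7 other hemidesmosome genes 2 rose and 1 fell. COL17A1, the transmembrane collagen of hemidesmosomes, rose by 0.49 (SE 0.07, adjusted p = 0.0023), and DST, which encodes a plakin that links them to keratin, fell by 0.17 on the log2 scale (SE 0.04) as the average of unlike changes. DST fell by 0.55 on the log2 scale within D-F (SE 0.06, adjusted p = 0.00048) and stood at 0.21 within A-C (SE 0.06, adjusted p = 0.068), and the difference between the line sets passed (-0.75, SE 0.08, adjusted p = 0.0044). The other riser was KRT14, whose call rests on D-F, at 0 TPM in both D samples and 0.254 and 0.176 TPM in F, so no fold is given. Within A-C KRT14 stood at 0.14 (SE 0.14, adjusted p = 0.61). Of 20 genes of integrin activation and focal adhesions, 1 rose, TNS4 (0.31, SE 0.08), and 2 fell, the talin gene TLN1 by 0.26 (SE 0.05) and PARVA by 0.42 (SE 0.07), both on the log2 scale. The 17 others of that list did not pass, and its median was -0.05. With 1 and 2 of 20, this list was near the shares of all tested genes.

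Of 19 other matrix genes, 15 were tested, and 2 of these rose and 1 fell, the latter near the share of all tested genes. THBS1, which encodes thrombospondin-1, rose by 0.54 (SE 0.12), and the fibronectin gene FN1, whose product is bound by α5β1 and αvβ6, rose by 0.37 (SE 0.07, adjusted p = 0.012). HSPG2, which encodes the basement membrane proteoglycan perlecan, fell by 0.30 on the log2 scale (SE 0.07). Of 5 genes of laminin receptors outside the integrin family 2 fell, BCAM by 0.63 (SE 0.08, adjusted p = 0.0015) and RPSA by 0.40 (SE 0.04, adjusted p = 0.00052), both on the log2 scale. SDC4, which encodes the proteoglycan syndecan-4, did not pass on average (-0.13, adjusted p = 0.14), and its changes in the line sets had opposite signs. It went from 306 and 275 TPM in A to 180 in both C samples, and from 156 and 163 TPM in D to 225 and 224 in F. It fell by 0.67 on the log2 scale within A-C (SE 0.07, adjusted p = 0.00059) and rose by 0.42 within D-F (SE 0.07, adjusted p = 0.0067), and the difference passed (1.09, SE 0.10, adjusted p = 0.0023). Among the squamous markers 4 of 10 rose at 200 ng/ml on average, namely TP63, KRT14, KRT6A and DSG3, against the same 4.98% of all tested genes. TP63 rose by 0.93 within A-C (SE 0.11, adjusted p = 0.0013) and stood at -0.10 within D-F (SE 0.11, adjusted p = 0.71), a difference that passed (-1.03, SE 0.15, adjusted p = 0.014), and the KRT14 call rests on the low values in D-F given above. The part of these markers in the changes of the laminin genes was not tested.

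The deposited transcript values split these genes further, and the split was unstable for several of them. For the 18 members with a mean of at least 10 TPM the leading transcript was protein coding in all but 3. The exceptions were ITGB4, ITGAE and ITGB6. ITGB4-212, a processed transcript, made up 48.0% ± 23.6 (SD, n = 6) of ITGB4 in A-C and 49.4% ± 24.2 (SD, n = 6) in D-F. It was at 0.03 TPM in C replicate 2 and 0.55 TPM in E replicate 1 but between 131 and 189 TPM in the other 10 samples, while the gene as a whole was at 213 and 254 TPM in those 2 libraries. The shares are therefore not used for a comparison of doses.

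Nearly all of the ITGAE level was assigned to non-coding transcripts. The coding ones held 0.38% of its TPM in A-C and 0.26% in D-F, a mean of 0.056 TPM, and its leading transcript was ITGAE-207. When only coding transcripts were counted, ITGAE alone dropped below 1 TPM, which left 20 members above it. ITGB6-202, annotated for nonsense-mediated decay, was at 3.8% ± 9.2 (SD, n = 6) of ITGB6 in A-C and 54.4% ± 21.2 (SD, n = 6) in D-F. The ITGB6 level in D-F thus included a transcript that is not annotated as protein coding. Its coding transcripts alone were at 22.7 and 15.35 TPM in A and 13.8 and 18.4 TPM in D, and so overlapped between these groups. In E they were at 74.2 and 18.3 TPM, and in F at 25.2 and 42.4 TPM.

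LAMA3 has a short form (LAMA3-201), which starts inside the gene at position 23872840, and a long form (LAMA3-202), which starts at 23689443. The short form measured 18.3 and 14.7 TPM in A, 39.7 and 40.8 in B, 47.5 and 1.59 in C, 62.0 and 54.4 in D, 113 and 118 in E, and 153 and 217 in F. It was higher in every treated sample than in the controls of its set except in C replicate 2. The long form measured 22.8 and 25.8 TPM in A, 14.4 and 28.4 in B, 24.7 and 22.5 in C, 49.9 and 9.73 in D, 76.0 and 78.0 in E, and 70.6 and 52.8 in F. C overlapped A, and the D replicates differed widely. The retained-intron transcript LAMA3-205 added 48.6 TPM on average in D-F and 6.80 TPM in A-C, and is part of the gene's TPM.

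The promoters of the genes that rose in D-F at 200 ng/ml are shown, and the letters searched were the interferon-stimulated response element (ISRE, GAAANNGAAA), the STAT element GAS (TTCNNNGAA) and the AP-1 element (TGANTCA), on both strands. The windows come from RefSeq on GRCh38.p14 and hold 250 bases before and 50 after a gene start. Windows were given for 26 of the 37 members, 33 windows in all. Sequences are in lower case with AP-1 matches in capitals.
LAMA3, chr18:23872770-23873069, plus strand, whose start lies 180 bases inside the transcript LAMA3-201: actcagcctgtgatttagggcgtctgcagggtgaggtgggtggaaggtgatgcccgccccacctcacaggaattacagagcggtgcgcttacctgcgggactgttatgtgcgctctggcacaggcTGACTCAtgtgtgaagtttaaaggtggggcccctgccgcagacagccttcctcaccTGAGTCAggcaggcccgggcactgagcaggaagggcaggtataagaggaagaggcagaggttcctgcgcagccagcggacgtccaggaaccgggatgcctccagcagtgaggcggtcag
LAMB3, chr1:209652280-209652579, minus strand, at the start of its leading transcript LAMB3-202: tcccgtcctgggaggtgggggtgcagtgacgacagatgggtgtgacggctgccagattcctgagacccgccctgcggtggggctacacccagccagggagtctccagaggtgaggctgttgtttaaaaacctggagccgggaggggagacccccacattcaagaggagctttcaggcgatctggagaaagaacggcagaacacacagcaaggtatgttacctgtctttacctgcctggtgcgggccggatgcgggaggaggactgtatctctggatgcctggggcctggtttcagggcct
ITGA2, chr5:52989102-52989401, plus strand: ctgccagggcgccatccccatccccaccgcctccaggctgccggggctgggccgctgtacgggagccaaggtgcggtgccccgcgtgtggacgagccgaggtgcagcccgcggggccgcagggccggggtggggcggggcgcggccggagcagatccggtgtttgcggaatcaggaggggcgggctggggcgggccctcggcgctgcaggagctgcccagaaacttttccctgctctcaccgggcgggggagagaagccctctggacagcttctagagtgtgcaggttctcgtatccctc
ITGA5, chr12:54419217-54419516, minus strand, whose start lies 194 bases inside the transcript ITGA5-201: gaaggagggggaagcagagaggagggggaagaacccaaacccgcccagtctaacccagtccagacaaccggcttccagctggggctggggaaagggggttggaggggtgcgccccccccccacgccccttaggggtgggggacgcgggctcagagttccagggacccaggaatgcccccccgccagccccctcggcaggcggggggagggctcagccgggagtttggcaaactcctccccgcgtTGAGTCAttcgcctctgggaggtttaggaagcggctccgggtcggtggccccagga
ITGB6, chr2:160200223-160200522, minus strand: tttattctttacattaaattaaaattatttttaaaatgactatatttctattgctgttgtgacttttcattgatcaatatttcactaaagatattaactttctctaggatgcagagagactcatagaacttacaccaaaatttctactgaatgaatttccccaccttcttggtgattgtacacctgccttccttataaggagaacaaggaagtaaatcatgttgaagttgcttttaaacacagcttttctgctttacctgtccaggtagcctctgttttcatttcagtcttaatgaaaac

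The LAMA3 window held 2 AP-1 matches, which began 125 and 69 bases before the RefSeq start and 55 and 111 bases inside LAMA3-201. The ITGA5 window held 1, which began 6 bases before the RefSeq start and 188 bases inside ITGA5-201. These matches thus lie within the leading coding transcripts as GENCODE gives them, and not upstream of them. The window shown for LAMB3 held none, and another of its 3 windows held a match. Over all 35116 windows AP-1 letters were found in 7.71%, and over the 33 member windows in 3. ISRE letters were found in 3.57% of all windows and in 1 member window, that of ITGB5, a gene that did not pass at either dose. Of the dose-check genes with a window, 6 of 7 held ISRE letters. GAS letters were found in 7.66% of all windows and in those of ITGAE and LAMB2. A match is a description of the letters and not a measured binding site.

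Positions of the genes are those of the deposited table on GRCh38.p10. In the GENCODE 29 annotation 18 members share exonic bases with a gene on the other strand, among them ITGA5, LAMA5, ITGB2, ITGAV and LAMB1, and 6 share them with a gene on the same strand, among them ITGB6. Whether counting used the strand of the reads is not given in the sources used here, so reads of such partners cannot be told apart from those of the members.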

How the data were processed

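RNA of 12 samples had been depleted of ribosomal RNA, made into directional libraries and sequenced on a HiseqXTen. The submitters' processing notes name Trimmomatic 0.36, HISAT2 2.1.0, StringTie 1.3.3b and the build GRCh38.p10, and the annotation release is not given in the sources used here. For each sample the deposited tables hold 3 measures of every gene and transcript. The deposited estimated counts were whole numbers that were not scaled for depth, the deposited TPM values had been scaled by the authors for length and to a fixed total per sample, and the deposited FPKM values for length and depth.

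Samples were grouped by the letter and dose in their titles. Estimated counts of all 6 groups were fitted together in edgeR 4.0.16 (R 4.3.3; TMM, filterByExpr, glmQLFit and glmQLFTest), with p-values adjusted by the Benjamini-Hochberg method over 19944 genes and a threshold of 0.05. The common biological coefficient of variation was 0.196. D against A also needed 2-fold. Contrasts over both line sets gave each set equal weight. The contrasts within a set, and the difference between sets at 20 ng/ml, came from the same fit and were added after the design was written. Alternatives were DESeq2 1.42.0, limma 3.58.1 on log2(TPM + 0.1) for genes with a mean of at least 0.5 TPM, other size factors, no filter, the compared groups alone, a replicate block and each sample left out. The script was tested on simulated data for 200 ng/ml against control. It recovered 15 of 50 genes changed 1.5-fold, 36 of 50 at 2-fold, 50 of 50 at 4-fold and 49 of 50 at 8-fold. Of its 160 calls, 10 were false. A member that did not pass may therefore have changed by a fold of this smaller size.

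Replicates of a group were not duplicates of each other, with a chi-square of their counts of 13.4 to 19.0 for each degree of freedom. No source names molecular identifiers, so floors cover counting error only. 1 more gene that matches the names is not reported here and is in no count of members, and every other was accounted for. Members past the threshold at a dose or in the line set difference were described in full, as were for D against A the members past the threshold with the largest changes and those above 50 TPM, and from other lists at most 3 genes in each direction. The members and lists were chosen with earlier results of these data known. Motifs, transcripts and gene overlaps were read with Python 3.11.15 from RefSeq promoter windows and GENCODE 29.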

Additional observations from a re-analysis of the deposited data

How the results depend on the processing

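At 200 ng/ml against control, the 8 members became 2 in limma on TPM and 1 with a 2-fold limit, and 2 to 8 when 1 sample was left out. At 20 ng/ml, the 3 became 6 in DESeq2 and 0 with a 2-fold limit, and 2 in limma on TPM, and ranged from 2 to 4 when 1 sample was left out. For D against A, the 11 became 18 without the fold limit. For the difference between line sets, the 0 became 4 in DESeq2, and it ranged from 0 to 1 when 1 sample was left out. Within A-C, the 2 became 4 in DESeq2, 1 in limma on TPM, 0 with the compared groups alone and 0 with a 2-fold limit, and ranged from 1 to 3 when 1 sample was left out. Within D-F, the 6 became 3 in limma on TPM and 1 with a 2-fold limit, and ranged from 1 to 7 when 1 sample was left out. The cause was not tested. The within-set settings and the count over coding transcripts were chosen after seeing the data. No fold change of a member past the threshold changed sign in any of these settings. Fits that left out 1 sample kept its partner as the only sample of its group, which is assumed to vary like the other groups. The count above 1 TPM was 19 with the lowest sample, 24 with the highest group mean and 20 in FPKM.

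No large effect shared by replicate number was seen. Deviations from the group means of same-numbered samples correlated at -0.05 to 0.06 over 13033 genes. This cannot show whether same-numbered samples were handled together, which the labels do not give. With the replicate block, 7 members passed at 200 ng/ml, 3 at 20 ng/ml, 11 for D against A and 0 for the difference between line sets, 2 within A-C and 5 within D-F, where LAMB3 was lost (adjusted p = 0.066). ITGB4 was lost at 200 ng/ml (adjusted p = 0.058). The floor of 3 counts, 0.187 to 0.285 CPM, limits what can be said of the 9 members that were not tested.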
